A study of Homo sapiens and Mus musculus with 18 samples.

Results

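The 4 tumours described here are the KPCA tumours of mice that keep Amhr2, namely WT438 and WT568 from wild-type mice (WT, C57BL6J) and Het563 and Het569 from Amhr2 heterozygous mice (Het). They were chosen by the sample titles, and they are 4 of the 18 samples of the series. The other samples are 4 tumours of Amhr2 knock-out mice (KO), set beside them here where they bear on a value, and 10 libraries of the human cell line Met5a, which are not used here. RNA of each whole tumour was sequenced in bulk, with 1 library per tumour. The labels name KPCA also as a line grown in DMEM with serum, and they give no age, sex, tumour site or clone, nor whether the tumour cells carry the genotype of the mouse. The genotype field reads WT for all 8 tumours, so the titles alone separate the groups. Both WT columns carry the suffix "extra", which no Het or KO column has, so that the suffix and the WT group cannot be told apart.

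KPCA cells descend from epithelium of the mouse fallopian tube and carry engineered changes that include mutant Trp53 and overexpressed Ccne1 and Akt2, made to mimic high-grade serous ovarian carcinoma. A tumour that grows from such cells holds fibroblasts, vessels and leukocytes of the host mouse as well, and bulk RNA is the sum of all of them. AMHR2 binds anti-Müllerian hormone as its type II receptor, and this TGF-beta family ligand makes the Müllerian duct regress in male embryos.

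Total counts were 28070669 in WT438, 17746902 in WT568, 19075680 in Het563 and 18270519 in Het569, and 18605392 to 19895517 in the KO tumours. WT438 stood apart in depth, and the other 3 were alike. Genes with at least 1 count numbered 18248 in WT438, 21369 in WT568, 22793 in Het563 and 21067 in Het569. In the KO tumours they numbered 20642 to 23237. WT438 thus had the most counts and the fewest genes detected, and the cause was not tested. Of 22046 protein-coding genes, 11089 had a mean of at least 1 FPKM (fragments scaled to gene length in kilobases and to library size) over the 4 tumours. FPKM is the level scale throughout, since it allows genes to be compared per length, and values of the 4 tumours are given in the order WT438, WT568, Het563 and Het569. Transcripts of the mitochondrial genome took 4.87 in WT438, 2.32 in WT568, 1.22 in Het563 and 1.59 in Het569 of the counts in percent (Wilson 95% intervals 4.86 to 4.87, 2.32 to 2.33, 1.21 to 1.22 and 1.58 to 1.60), and 1.36 to 4.33% in the KO tumours. Ribosomal protein genes took 8.27, 4.76, 5.15 and 6.10 percent. These intervals hold counting error alone, since reads carry no molecular identifiers and may repeat a molecule. How the authors' counting treated reads shared by near-identical copies or by overlapping genes is unknown here, so values of ribosomal protein genes, Eef1a1, Gapdh, actins, thymosins, globins, trypsins, heat shock genes and overlapping pairs such as Col4a1 with Col4a2 are uncertain.

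The gene that defines the genotypes was hardly measured. Amhr2 (ENSMUSG00000023047, chromosome 15, 102445367 to 102454633, as in the deposited table) had counts of 0, 5, 11 and 5 in the 4 tumours and of 8, 11, 3 and 3 in KO437, KO445, KO479 and KO543. The 0 in WT438 allows up to 0.119 CPM (counts scaled to library size), taking 3 counts as the limit. In FPKM it stood at 0, 0.128, 0.272 and 0.135, inside or below the KO range of 0.0768 to 0.287, so that its level told neither WT from Het nor either from KO at this depth. Its ligand Amh had counts of 14, 7, 10 and 9. The type I receptor Acvr1 stood at 14.03, 12.1, 16.9 and 16.6 FPKM, and Id1, Id2 and Id3, transcriptional targets of BMP-type SMAD signalling, at 35.2, 29.0, 22.8 and 33.2, at 24.3, 13.2, 15.6 and 16.9 and at 15.6, 15.0, 13.6 and 15.9. Of AMH and BMP pathway genes, 11 of 16 had a mean of at least 1 FPKM, and the score of these genes spanned little, at 0.07, -0.13, 0.00 and 0.06. A score here is the mean, over list members with a mean of at least 1 FPKM, of the log2 CPM of a tumour after subtraction of the 4-tumour mean.

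The most expressed nuclear protein-coding gene of the 4 tumours was Spp1 (ENSMUSG00000029304, chromosome 5, 104435118 to 104441050), which encodes osteopontin, a secreted phosphoprotein made by macrophages and by many carcinomas. Its level was 6726 FPKM in WT438, 3195 in WT568, 4068 in Het563 and 4552 in Het569, with a mean of 4635 ± 1502 (SD, n = 4). WT438 was the highest and WT568 the lowest, and the Het tumours lay between them. The translation elongation factor Eef1a1 followed at 5328, 2965, 3139 and 3684, then the ribosomal stalk protein Rplp1 at 5376, 1954, 2529 and 3307 and the galectin Lgals1 at 4889, 2137, 2639 and 3449. All 3 repeated that order, with WT438 highest and WT568 lowest. Further down came the actin-binding Tmsb4x at 4101, 2054, 2183 and 2653, the calcium-binding S100a11 at 2802, 1842, 1822 and 1986 and B2m, the light chain of MHC class I, at 2387, 2355, 1909.6 and 1441. B2m had its lowest value in Het569, and both WT tumours lay above both Het tumours, a non-overlap that held in one direction or the other for 4707 of 16287 genes tested (28.9%). The 30 genes together held 20.2, 15.0, 15.9 and 17.2 percent of the summed FPKM of nuclear protein-coding genes.

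Among these 30 genes, 11 encode ribosomal proteins, and 27 were highest in WT438 and 24 lowest in WT568. The others name the makeup of the tumours: cytoskeleton (Actb, Actg1, Vim), iron storage (Fth1), chaperones (Hsp90ab1), matrix (Spp1, Fn1), glycolysis (Pgk1) and myeloid cells (Apoe, Lyz2). A few broke the order. Apoe, the lipid carrier that tumour macrophages make in quantity, was even at 1681, 1389, 1402 and 1725 FPKM. Lyz2, the lysozyme of myeloid cells, was at 949.5, 999, 1061 and 1044, within 1.12-fold. Fn1, the fibronectin gene, ran the other way at 833, 966, 1351 and 1084. Both Het tumours lay above both WT tumours, a non-overlap that held in either direction for 28.9% of genes tested.

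**Figure D1:**
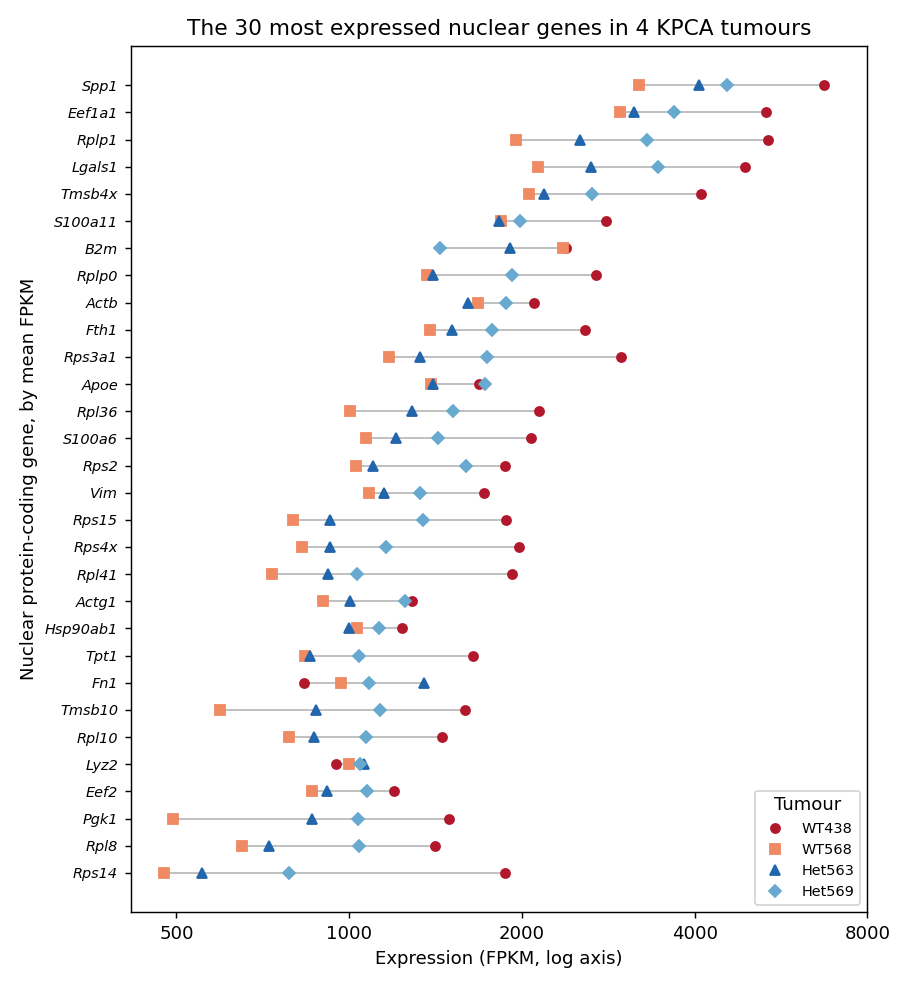
FPKM (log axis) of the 30 nuclear protein-coding genes with the highest mean, 1 symbol per tumour, with a grey line from the lowest to the highest tumour. WT438 holds the highest value for 27 of the 30 genes and WT568 the lowest for 24.

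Transcripts of the mitochondrial genome would fill the top ranks if counted in. The cytochrome oxidase subunit mt-Co1 was the highest protein-coding gene of all, at 14042 FPKM in WT438, 5445 in WT568, 3008 in Het563 and 4243 in Het569. The complex I subunit mt-Nd1 stood at 9025, 2966, 1433 and 1998, and cytochrome b (mt-Cytb) at 6151, 3083, 1624 and 2139. WT438 was the highest and Het563 the lowest for 13 of 13 mitochondrial protein-coding genes, and the score was 1.37 in WT438, -0.15 in WT568, -0.90 in Het563 and -0.32 in Het569. Among the KO tumours KO543 reached 12038 FPKM of mt-Co1, so a high value was not particular to WT438.

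The tumours carried simple-epithelial keratins at a high level together with a mesenchymal profile, and lacked several junction genes. Krt18 was at 952, 773, 713 and 927 FPKM and its partner Krt8 at 1033, 692, 679.7 and 879.8. Krt19, found in simple epithelia and mesothelium, was at 364, 196, 242 and 274, and Krt7, a keratin of the Müllerian tract, at 102, 88.8, 92.3 and 74.2. All 4 keratins were abundant in every tumour and the WT and Het values overlapped for each. The epithelial cadherin Cdh1 was far lower, at 14.7, 16.05, 11.4 and 11.4 FPKM. Both WT tumours lay above both Het tumours, as groups did not overlap in either direction for 28.9% of genes tested.

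Epcam, the adhesion molecule used to sort epithelial cells, was nearly absent. Its counts were 16, 23, 11 and 1, or 0.311, 0.578, 0.267 and 0.0266 FPKM. In the KO tumours it ran from 0.0256 to 58.1 FPKM, the highest value being that of KO543 alone. The claudin Cldn7 had counts of 0, 12, 3 and 0, and the epithelial regulators Grhl2 and Esrp1 counts of 20, 6, 3 and 0 and of 0, 1, 0 and 1. Of 15 epithelial markers, 9 had a mean of at least 1 FPKM, and 4 a mean under 0.1. The epithelial score, over the 9 members that are expressed, was 0.02, -0.04, 0.00 and 0.02.

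Mesenchymal genes were all present, 12 of 12 at a mean of at least 1 FPKM. The intermediate filament Vim reached 1718 FPKM in WT438, 1083 in WT568, 1152 in Het563 and 1331 in Het569, above every keratin. The transcription factors Twist1 and Snai1, which repress epithelial genes, stood at 26.2, 25.2, 31.9 and 34.8 and at 17.0, 24.1, 27.1 and 25.8. S100a4, a calcium-binding protein of motile cells, varied more, at 27.9, 10.98, 13.98 and 25.9, with WT438 and Het569 about equally high. In bulk RNA, tumour cells with a mesenchymal profile and host fibroblasts cannot be told apart by these genes, nor can fewer cells of a type be told from less RNA per cell, here and for every marker list that follows.

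Of the Müllerian and tubal markers, 8 of 15 had a mean of at least 1 FPKM. Wfdc2, the gene of the ovarian cancer serum marker HE4, was at 162, 98.2, 98.8 and 95.1 FPKM, highest in WT438 and even among the other 3. The Müllerian duct factors Pax2 and Emx2 stood at 9.33, 13.995, 11.2 and 8.79 and at 3.58, 6.03, 6.73 and 5.32, Pax8, the marker most used for tubal and ovarian serous carcinoma, at 3.90, 2.94, 2.99 and 3.23, and the uterine homeobox gene Hoxa10 at 3.29, 3.00, 2.54 and 2.56. These 4 were present in every tumour and lower than Wfdc2. Foxj1, which marks ciliated tubal cells, and Ovgp1, which marks secretory oviduct cells, had means under 1 FPKM, at 0.454, 0.821, 0.830 and 0.435 and at 0.290, 0.648, 0.431 and 0.564.

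Of the mesothelial list, 8 of 13 genes had a mean of at least 1 FPKM, at levels far apart. Msln, the surface protein mesothelin, was at 305, 251, 235 and 266 FPKM and the podoplanin gene Pdpn at 82.7, 68.2, 78.1 and 73.8. Both varied little, with SDs of log2 CPM of 0.15 and 0.11. The uroplakin Upk1b stood at 1.82, 1.91, 1.94 and 4.73 and Nkain4 at 1.44, 2.48, 2.04 and 3.68, both highest in Het569. Calb2, the calretinin of mesothelial cells, and Muc16, the gene of CA125, had counts of 12, 5, 1 and 4 and of 0, 1, 4 and 6. The mesothelial score was highest in Het569, at -0.30, -0.27, 0.10 and 0.46. Summed over the list, FPKM was instead highest in WT438, at 759, 526, 567 and 632. WT438 and Het569 were each the highest tumour for 3 of the 8 expressed genes. The summed level of the adipocyte list, given further on, was highest in Het569.

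The driver genes Akt2, Trp53 and Ccne1 were expressed in every tumour. Akt2 was at 147 FPKM in WT438, 107 in WT568, 140.4 in Het563 and 156 in Het569. Trp53 stood at 4.201, 5.95, 5.98 and 5.84 and the G1/S cyclin Ccne1 at 5.67, 4.16, 3.64 and 4.36. WT438 had the lowest Trp53 and the highest Ccne1, with the other 3 close together for Trp53. The WT and Het values overlapped for Trp53, Ccne1 and Akt2. Gene counts do not separate a transgene or a mutant allele from the mouse gene of the same name.

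Cycling genes were expressed in every tumour, and WT568 led the mitotic ones. Of 15 G2/M genes, 15 had a mean of at least 1 FPKM and 14 were highest in WT568 on the log2 CPM scale, with a score of -0.21 in WT438, 0.28 in WT568, 0.01 in Het563 and -0.08 in Het569. The ubiquitin-conjugating enzyme Ube2c was at 44.7, 55.4, 44.4 and 46.8 FPKM, the anaphase activator Cdc20 at 40.2, 46.7, 37.6 and 43.7 and the kinase Plk1 at 20.1, 29.8, 26.7 and 23.4. The highest and lowest tumours were at most 1.48-fold apart for each of these 3. Replication genes hardly varied: their score was 0.03, 0.05, -0.06 and -0.02, with the sliding clamp Pcna at 86.0, 65.6, 74.1 and 74.1 FPKM and the helicase subunit Mcm6 at 32.7, 32.0, 30.04 and 29.7.

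Interstitial collagens were abundant in all 4 tumours. Col1a1 was at 554 FPKM in WT438, 540.2 in WT568, 613 in Het563 and 691 in Het569, Col3a1 at 388, 402, 491 and 428 and Col6a1 at 320.1, 371, 452 and 454. Each was higher in both Het tumours than in both WT tumours. Such a non-overlap, in one direction or the other, held for 28.9% of all genes tested. Of the list, 10 of 10 collagens had a positive log2 fold change of Het against WT, with a median of 0.41 against -0.01 over all genes tested. None of the 10 passed the test of edgeR given further on, nor did any of the 16287 genes (0%). WT438 was the lowest tumour for 9 of the 10, and without it the median was 0.26 with 9 of 10 positive. Basement membrane genes had a score of -0.24, -0.04, 0.22 and 0.06, with Het563 the highest tumour for 9 of 10 genes and WT438 the lowest for 6, and for example 39.3, 65.6, 70.9 and 62.7 FPKM of the perlecan gene Hspg2 and 36.2, 51.0, 59.1 and 54.5 of the laminin chain Lama5, with WT and Het values that overlapped for Hspg2 and not for Lama5. These are long transcripts, and long genes as a class were lower in WT438, as given under variation. The part of transcript length in the collagen values was not tested.

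Of matricellular and other matrix genes, 10 of 14 had a positive log2 fold change of Het against WT (median 0.22). Sparc, the collagen-binding osteonectin, was steady at 954, 807, 919 and 925 FPKM. The protease inhibitor Timp1 was at 399.6, 208, 274 and 471, with Het569 and WT438 high. Ctgf, a target of YAP and TGF-beta signalling, was at 492, 261, 251 and 186, highest in WT438 and lowest in Het569. Both WT tumours lay above both Het tumours, as groups did not overlap in either direction for 28.9% of genes tested. Thrombospondin (Thbs1) stood at 211, 150.3, 212 and 146. The WT and Het values overlapped for Sparc, Timp1 and Thbs1.

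Fibroblast markers were present at moderate levels, 12 of 12 at a mean of at least 1 FPKM. Thy1, a surface glycoprotein of fibroblasts, stood at 64.0, 46.8, 50.8 and 67.3, the gelatinase Mmp2 at 26.3, 43.7, 36.0 and 39.2, and the small proteoglycan decorin (Dcn) at 15.1, 23.3, 26.9 and 20.8. No tumour was highest for all 3. Summed over the list, FPKM was 191 in WT438, 226 in WT568, 222 in Het563 and 232 in Het569, and 233 to 325 in the KO tumours. The smooth muscle actin Acta2 was far above these genes, at 723, 401, 478.8 and 639.8, while Tagln, its usual partner in smooth muscle and myofibroblasts, was at 0.379, 0.490, 0.573 and 0.300. Tagln overlaps Pcsk7 on the opposite strand in the deposited table, so its low value is uncertain. The pericyte receptor Pdgfrb was even, at 60.0, 60.2, 63.9 and 70.9.

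Endothelial genes were low but clear, with summed FPKM of 132 in WT438, 87.0 in WT568, 78.2 in Het563 and 93.5 in Het569. Endoglin (Eng) was at 17.6, 20.5, 15.8 and 16.4 FPKM and VE-cadherin (Cdh5) at 17.9, 13.0, 13.1 and 11.7. The tight junction gene Cldn5 stood at 37.1, 8.66, 7.06 and 11.96, so that WT438 alone of the 4 was high. In the KO tumours it ran from 4.78 in KO543 to 27.2 in KO479. The receptor Flt1 did not follow, at 9.58, 8.55, 11.9 and 12.7, and was highest in Het569. WT438 was the highest tumour for 7 of the 11 endothelial genes with a mean of at least 1 FPKM and Het563 the lowest for 6. Lyve1, found on lymphatic endothelium and on some macrophages, was at 2.07, 6.85, 3.42 and 3.74, highest in WT568, while Prox1, which defines lymphatic endothelium, had counts of 0, 1, 7 and 0.

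Fat cell genes were concentrated in Het569. The adipokine Cfd (adipsin) was at 2.15 FPKM in WT438, 0 in WT568, 6.60 in Het563 and 56.7 in Het569, and the 0 in WT568 is a count of 0, which allows up to 0.155 CPM. Adiponectin (Adipoq) had counts of 0, 0, 14 and 78, and Cidec, a lipid droplet protein, counts of 11, 0, 22 and 160. All of the 8 listed genes were highest in Het569. In Het against WT, 6 of 6 tested members were positive, and 5 of 6 without Het569. Over all genes tested 7898 of 16287 were positive, and 0 of the 6 passed the edgeR test. Members near 0 in both WT tumours could pass the filter on low counts through the Het tumours alone. Their positive sign was then fixed in advance and is no support for a difference. Het563 held 13.8 summed FPKM against 12.7 in WT438, 6.26 in WT568 and 86.9 in Het569. Het569 also had the highest Hp, the gene of haptoglobin, at 11.99, 6.29, 8.87 and 48.6, and the highest Lrg1, a secreted leucine-rich glycoprotein, at 3.58, 2.70, 4.04 and 16.7.

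Macrophage genes made up the main immune signal. Complement C1q genes, which mark tissue macrophages, stood at 688 FPKM in WT438, 642 in WT568, 548 in Het563 and 697 in Het569 for C1qa, and at 694, 613, 480.2 and 607 for C1qb. C1qc was at 246, 249, 210.3 and 219. These levels were even, with SDs of log2 CPM from 0.11 to 0.21 among the 3. Of 14 macrophage markers, 13 had a mean of at least 1 FPKM, and the summed FPKM was 3705, 3229, 2994 and 3645, within the KO range of 1718 to 4005. Arginase 1 (Arg1), an arginine-degrading enzyme of alternatively activated macrophages, varied more, at 192, 75.8, 118 and 169, highest in WT438 and lowest in WT568. Timd4, which marks resident peritoneal macrophages, had counts of 11, 0, 7 and 6.

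**Figure D2:**
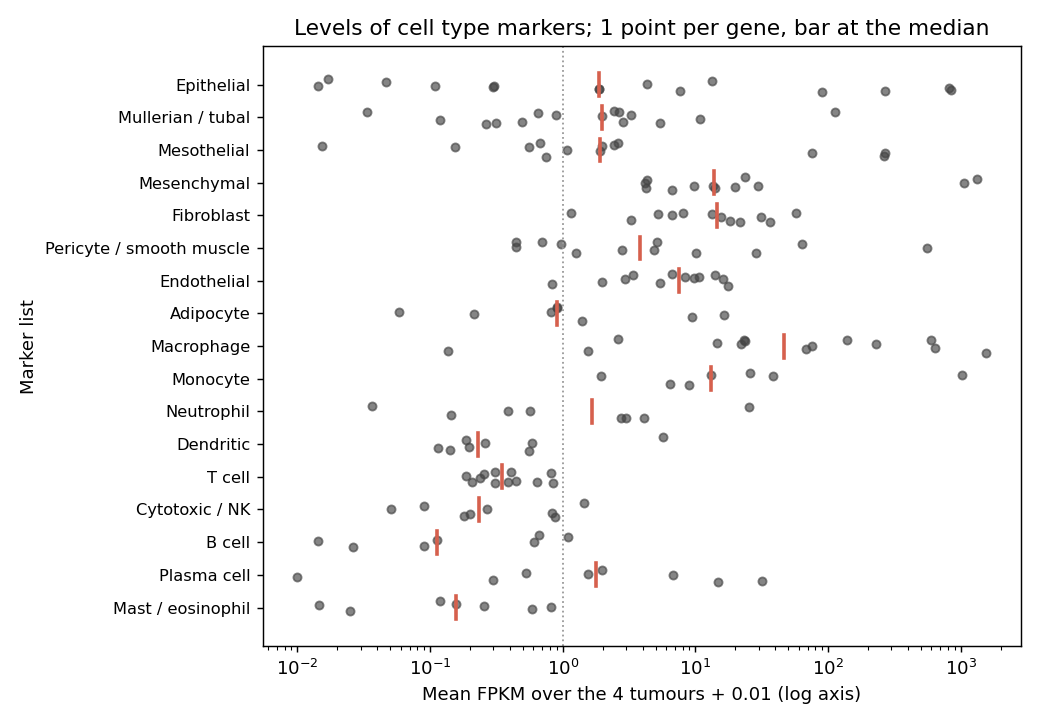
Mean FPKM over the 4 tumours plus 0.01 (log axis) of each gene of 17 marker lists, with a red bar at the median of the list and a dotted line near 1 FPKM. Of the macrophage markers 13 of 14 lie at or above 1 FPKM, of the T cell markers 0 of 12.

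General leukocyte genes were all expressed, 8 of 8 at a mean of at least 1 FPKM. Laptm5, a lysosomal protein of blood cells, was at 61.5, 90.1, 68.1 and 66.7 FPKM, the tetraspanin Cd53 at 65.5, 46.5, 49.0 and 61.7 and the actin regulator Coro1a at 50.4, 50.3, 44.5 and 44.7. The pan-leukocyte score was -0.08, 0.11, -0.01 and -0.02, highest in WT568, and its span of 0.196 was 0.0720 without that tumour. Among monocyte genes the lipopolysaccharide co-receptor Cd14 was at 32.1, 41.3, 39.7 and 40.9 and the Fc receptor Fcgr1 at 22.4, 28.6, 28.6 and 24.3. The monocyte score was -0.11, 0.20, -0.01 and -0.08, also highest in WT568, with a span of 0.307 and of 0.0946 without WT568.

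Neutrophil and dendritic cell genes were sparse. The gelatinase Mmp9 was at 36.2, 16.6, 19.5 and 28.8, but it is also made by other cells, and Ly6g, the surface marker that defines mouse neutrophils, had counts of 0, 1, 1 and 0. The alarmin S100a9 was at 8.75, 1.67, 4.74 and 1.25 FPKM and S100a8 at 4.81, 1.77, 2.50 and 1.96, both highest in WT438. Of 8 dendritic cell markers 1 had a mean of at least 1 FPKM, the integrin Itgax, at 4.14, 6.12, 6.996 and 5.56, which macrophages carry as well. Clec9a and Xcr1, which define cross-presenting dendritic cells, had counts of 15, 24, 21 and 8 and of 32, 6, 18 and 16.

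T cell genes were near the limit of measurement, and counts this low do not order the tumours firmly. Of 12 markers, 0 had a mean of at least 1 FPKM. The T cell receptor component Cd3e had counts of 14, 47, 9 and 6, the co-receptor Cd8a 0, 28, 12 and 10, and Foxp3, the regulator of regulatory T cells, 0, 34, 17 and 10. WT568 was the highest in these 3, though not for Cd3g, which had counts of 44, 14, 15 and 13. WT438 had 0 counts of Cd8a and Foxp3, with the greatest depth but the fewest genes detected of all tumours. Summed over the list, FPKM was 2.97 in WT438, 8.03 in WT568, 4.86 in Het563 and 3.84 in Het569, and 1.54 to 4.84 in the KO tumours. Cytotoxic and natural killer genes were also highest in WT568, with summed FPKM of 1.82, 7.19, 3.04 and 3.39 and, for granzyme B (Gzmb), counts of 5, 40, 29 and 23. The checkpoint receptor Pdcd1 followed with counts of 5, 61, 29 and 21.

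B cell genes were as low as T cell genes, whereas immunoglobulin transcripts were not. Of 7 B cell markers, 1 had a mean of at least 1 FPKM, and it was highest in WT438. A mean under 0.1 FPKM was found for 3, and the B cell antigen Ms4a1 had counts of 0, 1, 0 and 1. Summed over the list, FPKM was 2.65, 2.50, 2.49 and 2.57. The kappa chain gene Igkc was at 2.91 FPKM in WT438, 29.8 in WT568, 84.0 in Het563 and 10.7 in Het569, Ighm at 2.86, 9.22, 42.4 and 4.78 and the joining chain Jchain at 0.473, 1.45, 5.35 and 0.625. Het563 was the highest tumour for all 3. Summed over the plasma cell list, FPKM was 9.47, 54.0, 146 and 20.9, so that the lowest and the highest tumours, WT438 and Het563, were 15.5-fold apart.

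Antigen presentation and interferon genes were high and did not follow the lymphocyte counts in full. The class I heavy chain H2-K1 was at 351 FPKM in WT438, 531 in WT568, 389 in Het563 and 295 in Het569, H2-D1 at 644, 756, 622 and 452 and the peptide transporter Tap1 at 24.5, 31.8, 21.99 and 15.1. WT568 was highest for 8 of 9 class I genes and Het569 lowest for 7. In class II, the invariant chain Cd74 was at 383, 764, 488 and 448 and H2-Eb1 at 113, 245, 162 and 142, and WT568 was highest for 6 of the 6 expressed genes, with a score of -0.31, 0.46, -0.03 and -0.13. Cxcl9, the interferon-gamma induced chemokine that draws T cells, was at 2.28, 15.5, 5.74 and 4.59, also highest in WT568.

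Genes induced by interferon had a different order. Bst2 (tetherin), which holds budding virus at the cell surface, was at 447, 355, 332 and 267 FPKM and the ubiquitin-like Isg15 at 199, 118, 125 and 109.6. The antiviral Ifit3 was at 72.7, 60.1, 53.7 and 36.1. Het569 was the lowest tumour for 12 of the 14 genes, and the score was 0.16 in WT438, 0.16 in WT568, 0.08 in Het563 and -0.40 in Het569. Against KO tumours, 14 of 14 had a positive log2 fold change, with a median of 0.71 against 0.01 over all genes tested and of 0.39 without KO543 and 1.11 without KO445, and 0 of them passed the test of edgeR, as 0 of 15205 genes did (0%). The summed FPKM was 928, 740.3, 695 and 549 against 131 to 615 in the KO tumours, whose lowest value was that of KO543.

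The chemokines Ccl6 and Ccl2, which attract monocytes, were at 52.5, 35.2, 64.8 and 79.3 and at 36.0, 29.2, 56.1 and 49.6 FPKM, lowest in WT568 for both, and Cxcl16 was at 31.5, 29.4, 30.2 and 38.5. Among checkpoint ligands, Cd276 was the highest at 42.6, 34.8, 38.1 and 44.4, and Vsir, on myeloid cells, was at 14.9, 18.0, 17.3 and 16.3. Cd274, which encodes PD-L1, was low at 2.77, 3.09, 4.28 and 3.55 FPKM, and the PD-L2 gene Pdcd1lg2 had counts of 0, 2, 3 and 0.

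Genes of other tissues were looked for, though the labels give no tumour site. Among the 4, pancreatic acinar enzymes were found in the WT tumours above all. Colipase (Clps) was at 15.4 FPKM in WT438, 53.6 in WT568, 0.324 in Het563 and 5.24 in Het569, chymotrypsinogen Ctrb1 at 16.6, 29.5, 3.33 and 6.31 and the trypsinogen Prss2 at 4.38, 8.05, 1.34 and 0.999. WT568 was highest for 9 of the 10 genes with a mean of at least 1 FPKM, WT438 for the other, and Het563 lowest for 9. Het against WT gave 0 of 13 positive log2 fold changes, with a median of -2.52. Over all genes tested 7898 of 16287 were positive, and 0 of the 13 passed the edgeR test. KO479 held 78.0 summed FPKM, above WT438 at 64.2 and within the range of 9.19 to 129.8 of the 4 tumours. Its Ctrb1, at 34.9, was above all 4. The other KO tumours held 7.76 to 11.9 summed FPKM. Of liver genes 0 of 7 had a mean of at least 1 FPKM, and albumin (Alb) had counts of 3, 0, 2 and 0. Of intestinal genes 3 of 6 did, among them the homeobox gene Cdx2 at 1.79, 1.63, 2.41 and 1.90 FPKM, while Fabp2, a fatty acid binding protein of enterocytes, had 0 counts in each tumour. Of skeletal muscle genes 1 of 6 did, the actin Acta1 at 8.43, 4.37, 4.74 and 13.1, while the muscle myosin Myh4 had 0 counts. Of granulosa cell genes 1 of 6 did, the cholesterol transporter Star at 1.17, 1.92, 2.39 and 3.33, while the granulosa cell factor Foxl2 had 0 counts.

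Red blood cell transcripts split the WT tumours. The beta globin Hbb-bs was at 151 FPKM in WT438, 6.01 in WT568, 24.6 in Het563 and 38.6 in Het569 and the alpha globin Hba-a1 at 98.0, 7.01, 16.7 and 31.6. WT438 was the highest and WT568 the lowest for 4 of 4 expressed genes of the list, with both Het tumours between them. The 4 Y-linked genes, Ddx3y, Uty, Kdm5d and Eif2s3y, had 0 counts in all 4 tumours, and Xist, the RNA that silences the X chromosome, was at 1.00, 6.81, 6.45 and 4.38 FPKM.

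Hypoxia and stress genes were low in WT568. The glycolytic kinase Pgk1 was at 1491 FPKM in WT438, 493 in WT568, 861 in Het563 and 1036 in Het569, aldolase Aldoa at 697, 349, 542 and 657 and lactate dehydrogenase Ldha at 705, 302, 482 and 544. WT568 was lowest for 13 of 14 genes, and the score was 0.23 in WT438, -0.71 in WT568, 0.17 in Het563 and 0.30 in Het569. Vegfa, the vascular growth factor, differed in that WT438 was low too, at 53.9, 51.8, 106 and 101. In the unfolded protein and amino acid response, the chaperone Hspa5 was at 329.9, 186, 257 and 260 and the transcription factor Atf4 at 218, 107, 120.3 and 155, with WT568 lowest for 8 of 10 genes. Immediate-early genes spanned less, with a score of -0.07, -0.10, 0.03 and 0.14 and WT568 lowest for 5 of 12 genes, with Junb at 84.3, 69.2, 119 and 146 FPKM, which overlaps Prdx2 on the opposite strand, and Jun at 21.1, 32.9, 40.3 and 38.3.

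**Figure D3:**
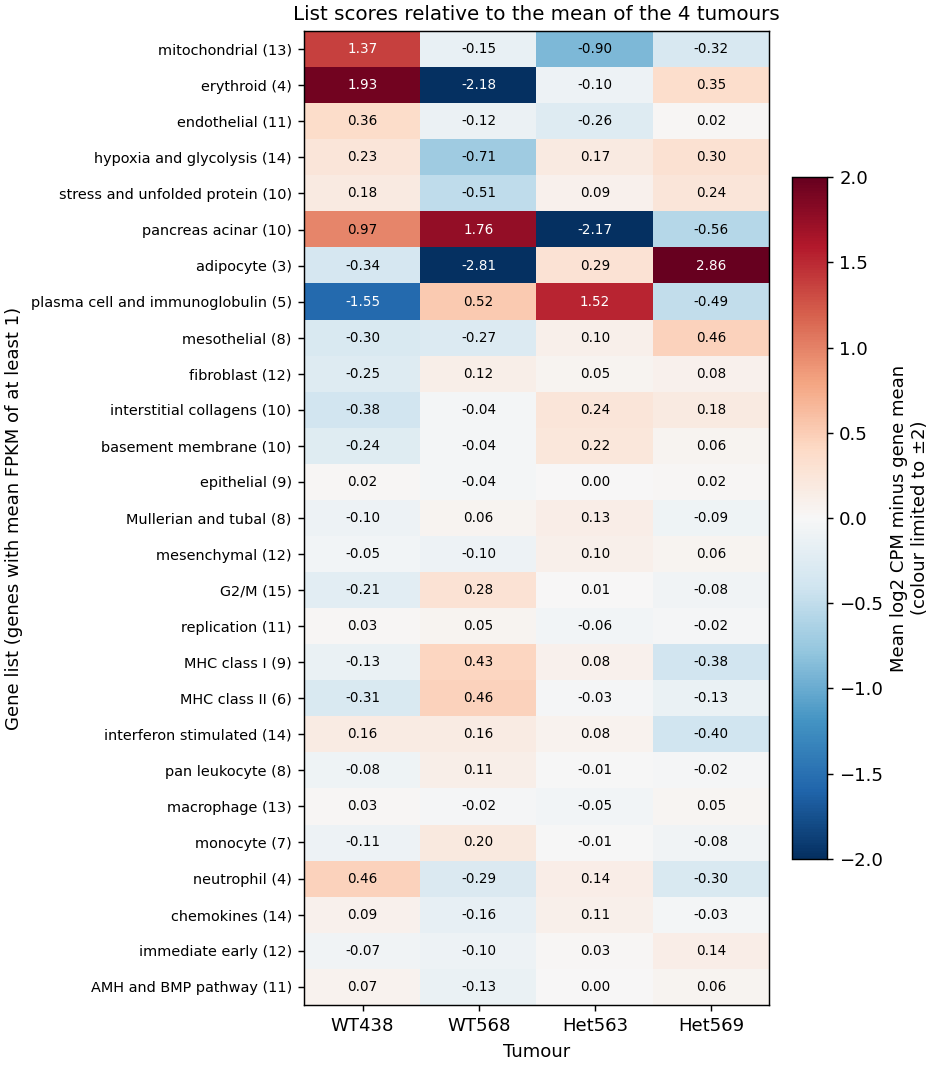
Score of each gene list (rows, with the number of genes at a mean of at least 1 FPKM) in each tumour (columns), as mean log2 CPM relative to the 4-tumour mean. The epithelial and macrophage rows stay within 0.05 of 0, while the adipocyte row reaches 2.86 in Het569 and -2.81 in WT568.

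Variation among the 4 tumours was small for most genes and had WT438 as its main source. Over 11076 nuclear protein-coding genes with a mean of at least 1 FPKM, the median SD of log2 CPM was 0.246, against 0.233 in the KO tumours, and 37.1% of the genes had an SD under 0.2 and 101 genes one above 1. Without WT438 the median SD of the other 3 was 0.160. The biological coefficient of variation of edgeR was 0.242 over the 4, 0.165 without WT438 and 0.275 over the KO tumours. WT438 was the tumour farthest from the mean of the other 3 for 6078 genes (54.9%), WT568 for 2093, Het563 for 1314 and Het569 for 1591.

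Pearson correlations of log2 CPM across these 11076 genes, which are not independent of each other, were 0.983 between the Het tumours and 0.981 between WT568 and Het563. They were 0.941, 0.945 and 0.960 for WT438 with the other 3. The WT tumours were the least alike pair of the 4, with 1099 genes at least 2-fold apart against 141 between the Het tumours. With the KO tumours included, WT438 correlated best with KO479, at 0.969. On principal components, the first held 65.01% of the variance and set WT438 apart, and the second, with 24.2%, set WT568 against Het569.

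Gene length went with the deviation of WT438. The median log2 CPM of WT438 relative to the mean of the 4 was 0.42 for 317 genes under 1 kb and -0.24 for 1843 genes over 8 kb, with the classes between in order. In WT568 the same medians were -0.29 and 0.11, and in Het563 -0.14 and 0.14. Het569 was level, at 0.03 and -0.00161. Ribosomal protein genes, which are short, stood at 0.59 in WT438 and -0.41 in WT568. The KO medians for genes under 1 kb, taken relative to the mean of the 4 KO tumours, ran only from -0.11 to 0.11. No RNA quality values were at hand, and the part of RNA quality, depth or the suffix of the WT columns in these differences was not tested.

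**Figure D4:**
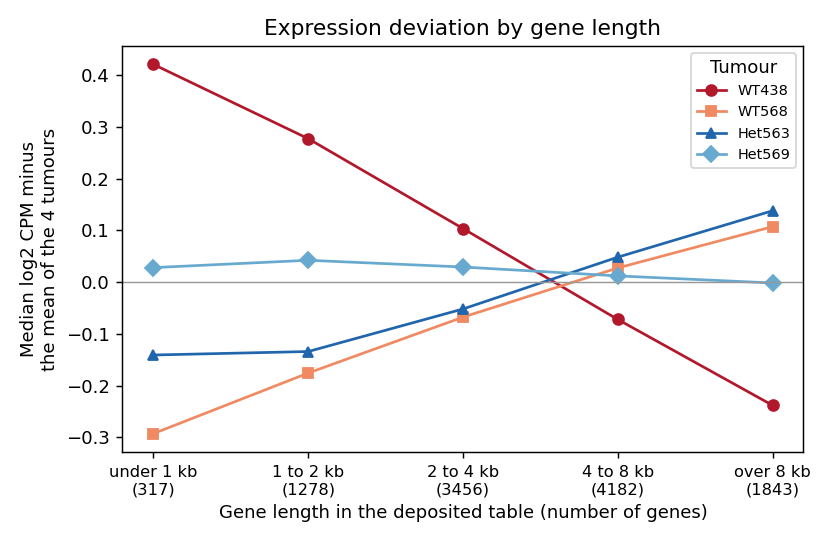
Median over genes of log2 CPM minus the mean of the 4 tumours (vertical axis), by gene length in the deposited table (horizontal axis, with gene numbers), 1 line per tumour. WT438 goes from 0.42 for genes under 1 kb to -0.24 for genes over 8 kb, and WT568 from -0.29 to 0.11.

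Many of the genes that varied most belonged to groups already named. Of the 25 with the largest SD of log2 CPM among genes with a mean of at least 5 FPKM, 7 are mitochondrial, and 13 were highest in WT438, 8 in WT568, 4 in Het569 and 0 in Het563. Cfd led with an SD of 3.76, then Clps with 2.87 and the glycolytic enzyme Gapdh with 2.50. Gapdh stood at 149, 3.46, 87.9 and 95.4 FPKM, so that WT568 alone of the 4 was low, and at 4.22 to 92.9 in the KO tumours, and it has many pseudogene copies. Others were Oas2, an interferon-induced RNA sensor, at 3.50, 21.1, 17.9 and 9.04, the matrix protein Mfap4 at 1.53, 9.58, 4.30 and 6.52 and Ctla2a, a protease inhibitor first found in T cells, at 26.0, 5.57, 5.73 and 7.03. WT438 was the lowest of the 4 for Oas2 and Mfap4 and the highest for Ctla2a, although 8 of the 14 interferon-induced genes of the list were highest in it. Of genes with a mean of at least 5 FPKM, WT438 lay at least 2-fold above all other 3 tumours for 43 and at least 2-fold below them for 53. The same counts were 3 and 15 for WT568, 1 and 1 for Het563, and 4 and 1 for Het569.

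**Figure D5:**
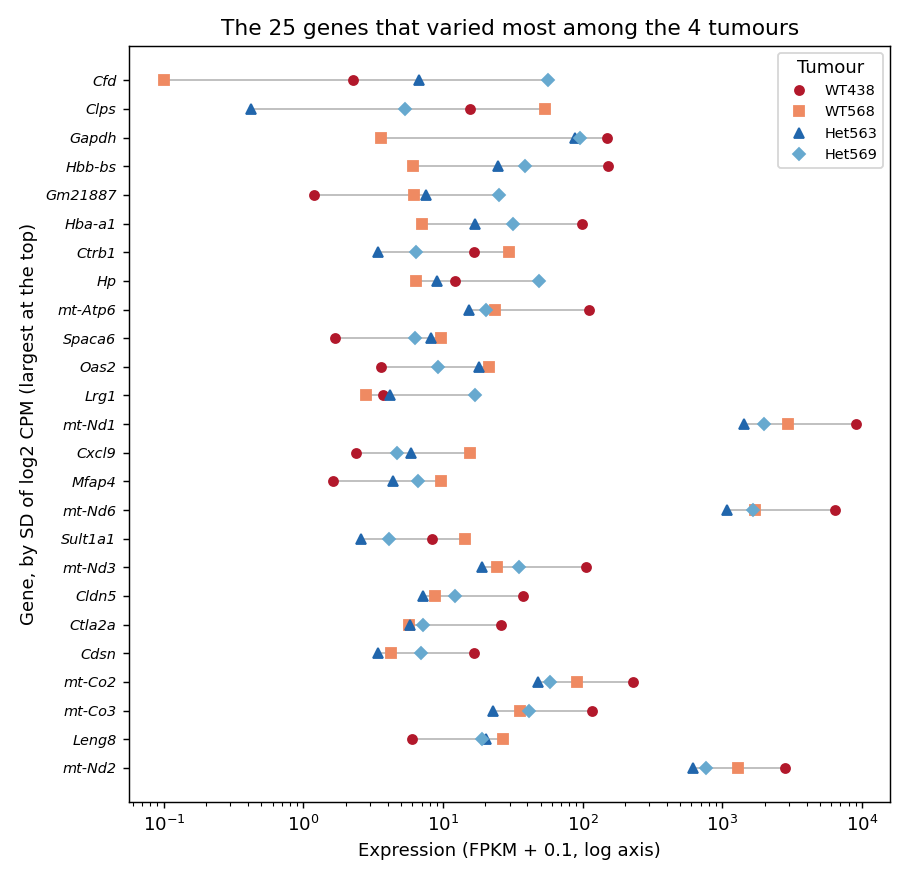
FPKM plus 0.1 (log axis) of the 25 protein-coding genes with the largest SD of log2 CPM, largest at the top, 1 symbol per tumour. Cfd spans from 0 FPKM in WT568 to 56.7 in Het569, and 13 of the 25 genes are highest in WT438.

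Some genes were nearly constant. Shisa5, a p53-induced endoplasmic reticulum protein, was at 67.4 FPKM in WT438, 67.4 in WT568, 67.5 in Het563 and 67.2 in Het569. The aminopeptidase Lap3 was at 28.5, 28.6, 28.5 and 28.1, the ubiquitin ligase Rnf130 at 27.3, 27.1, 26.6 and 27.5, the nuclear envelope protein Tmem43 at 34.4, 33.8, 33.0 and 32.9 and the cytoskeletal adducin Add1 at 30.4, 29.1, 29.5 and 29.8. These 5 had the smallest SDs of log2 CPM among genes with a mean of at least 20 FPKM.

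The 4 tumours were compared with the KO tumours to see where they differ from the rest of the series. By the quasi-likelihood test of edgeR, 0 of 15205 genes (0%) passed an adjusted p of 0.05, and 630 (4.14%) had an unadjusted p under 0.05. DESeq2 called 1 gene, limma on log2(FPKM + 1) 0. The gene with the smallest p was the calmodulin kinase Camk1g, at 1.87, 1.51, 1.11 and 1.40 FPKM in the 4 tumours and 2.80 to 3.90 in the KO tumours (log2 fold change -1.20, SE 0.24, edgeR adjusted p = 0.9989; 0.0191 by DESeq2). All 4 lay below all 4 KO tumours, as groups did not overlap in either direction for 367 genes (2.41%). Next came the microtubule-binding Tppp3, at 11.4, 16.4, 22.8 and 16.4 against 6.08 to 10.1 (log2 fold change 1.06, SE 0.23, edgeR adjusted p = 0.9989), and the hyaluronan synthase Has1, at 0.940, 2.04, 2.39 and 1.89 against 0.591 to 0.835 (log2 fold change 1.42, SE 0.31, edgeR adjusted p = 0.9989). Both were higher in all 4 tumours than in any KO tumour, and neither passed. Leaving out 1 tumour at a time also gave 0 genes.

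Lists were read against the same background. Class I genes were positive in 9 of 9, with a median log2 fold change of 0.50, which was 0.23 without KO543 and 0.32 without WT568. The summed FPKM of class I genes was 1209 in KO543 and 2456 to 3257 in the other KO tumours. Class II genes were positive in 0 of 7, with a median of -0.26 that ran from -0.50 without WT568 to -0.08 without KO445. Replication genes were positive in 10 of 12 (0.24, and 0.15 without KO437), basement membrane genes in 1 of 10 (-0.30) and pericyte and smooth muscle genes in 1 of 12 (-0.52). These lists did not stand alone. Pancreatic acinar genes were positive in 12 of 12 (0.95), erythroid genes in 5 of 5 (1.05) and mitochondrial genes in 12 of 12 (0.20). G2/M genes were positive in 14 of 15 (0.17) and immediate-early genes in 2 of 12 (-0.58). The median over all 15205 genes was 0.01, and 0 members of any list passed the test.

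The Het and WT tumours differ in genotype and in the suffix of their columns. Of 16287 genes, 0 (0%) passed the edgeR test and 314 (1.93%) reached an unadjusted p below 0.05, while DESeq2 called 1, the mitochondrial tRNA gene mt-Tc, and limma 0. The smallest p was that of Nr1d1, the circadian repressor REV-ERB alpha, at 12 FPKM in WT438, 11.2 in WT568, 23.2 in Het563 and 28.6 in Het569 (log2 fold change 1.16, SE 0.24, edgeR adjusted p = 0.9996). The KO tumours stood at 18.8 to 29.6, so both Het tumours lay inside that range and both WT tumours below it. Rarres1, a retinoid-responsive membrane protein, followed with counts of 5, 5, 44 and 35 (log2 fold change 3.14, SE 0.71, edgeR adjusted p = 0.9996). Vegfa was the third, at the levels given above, log2 fold change 0.97, SE 0.22, edgeR adjusted p = 0.9996. Without WT568 the test called 2 genes, mt-Tc and mt-Tn. The WT arm is then WT438 alone, the tumour with the highest mitochondrial share, and its spread is taken from the other groups. Without any 1 of the other tumours the count was 0. For Nr1d1, Rarres1 and Vegfa the groups did not overlap, as for 28.9% of all genes, and none passed. Nr1d1 overlaps Thra on the opposite strand.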

How the data were processed

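Gene counts per tumour were deposited by the authors as raw whole numbers for 54532 mouse genes, and the deposited FPKM values are those counts divided by gene length and multiplied by a constant of each library. The sources used here name no aligner, counting tool, strand setting or genome build, so coordinates are those of the deposited table. Genes that overlap or have near-identical copies are uncertain. No tumour column was left unused (0). The denominator of the deposited FPKM lay within 1.21% of the TMM effective library size in every tumour, so FPKM could be set side by side across tumours.

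Log2 CPM was computed with TMM factors and a prior count of 2 in edgeR 4.0.16 (R 4.3.3). The 4 tumours were tested against the KO tumours, and Het against WT, with the two-sided quasi-likelihood test of edgeR after its filter with a minimum count of 10, in fits over all 8 tumours, with Benjamini-Hochberg adjustment over all genes tested and a threshold of 0.05. Nothing more is said of the replicates. With 1 library per tumour, p-values reflect just the spread between tumours, whose biological and technical parts cannot be told apart. Alternatives used DESeq2 1.42.0, limma 3.58.1 on log2(FPKM + 1), other scaling, no filter, and each tumour left out in turn. On simulated counts, the test of the 4 tumours against KO (14884 genes) recovered 24, 40, 44 and 45 of 50 genes changed 2-, 4-, 8- and 16-fold, and Het against WT (15164 genes) 5, 30, 40 and 48 of 50. It also called 14 unchanged genes in the former and 7 in the latter. The simulation drew genes independently and held no shift of a whole library such as that of WT438. Its recovery may therefore not carry over to the real counts.

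Total counts of 17746902 to 28070669 put the limit for a count of 0 at 0.119 to 0.165 CPM. Named genes were the 30 nuclear and 5 mitochondrial genes with the highest mean FPKM, the 25 most and 5 of the 20 least variable, up to 5 members of each list with the highest mean FPKM, defining members with a mean below 1 FPKM, the 3 smallest p-values of each test, Amhr2, Amh and driver genes. A few items that this rule names are not reported here. Members and lists were chosen with earlier results of these data known. Sequences and the Met5a libraries were not analysed here.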

Additional observations from a re-analysis of the deposited data

Results flagged for a closer look

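Of 96 sets of 4 values examined, 11 different ones held 1 tumour whose gap to the nearest of the others exceeded 0.829 of the whole range. The 96 count mt-Nd1, mt-Nd2 and mt-Nd6 more than once, since each is among both the most expressed and the most variable genes. Chance gives this in about 1 of 20 sets, but the sets include the 25 genes with the largest SD among these tumours, from which 7 of the 11 come, so the count cannot be set against that share. WT438 stood apart in total counts, at 28070669 against 17746902 to 19075680. It also stood apart for S100a11 at 2802 FPKM against 1822 to 1986. For mt-Nd6, a complex I subunit whose gene overlaps mt-Nd5 on the other strand, it had 6394 FPKM against 1083 to 1705. The ATP synthase subunit mt-Atp6 stood at 110.4 against 15.3 to 23.6. Cldn5 was at 37.1 against 7.06 to 11.96, and Ctla2a at 26.0 against 5.57 to 7.03.

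Het569 stood apart for 3 genes and 1 list. Cfd was at 56.7 FPKM against 0 to 6.60, Hp at 48.6 against 6.29 to 11.99 and Lrg1 at 16.7 against 2.70 to 4.04. The interferon-stimulated score was -0.40 there against 0.08 to 0.16. WT568 stood apart for the hypoxia and glycolysis score, at -0.71 against 0.17 to 0.30.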

How the results depend on the processing

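For the 4 tumours against KO, the edgeR test gave 0 calls and 0 to 0 with each tumour left out, limma 0, and DESeq2 1, Camk1g. For Het against WT the 0 calls of edgeR became 63 without the filter on low counts, where 28942 genes were tested and Cfd, mt-Tc and Clps led, and Nr1d1 then had a log2 fold change of 1.18 with an edgeR adjusted p of 0.00271. DESeq2 called 1, mt-Tc, and leaving out each tumour gave 0 to 2, the 2 without WT568, where WT438 is the lone WT tumour. The cause of these differences was not tested. The median SD of log2 CPM, 0.246, ran from 0.160 without WT438 to 0.260 with each tumour left out, and was 0.205 on log2(FPKM + 1). Of the 30 most expressed genes 28 to 30 stayed with each tumour left out, and 29 as TPM. Of 86 values of single named genes, 84 kept their direction and side of the threshold, 2 passed it (Camk1g by DESeq2, Nr1d1 without the filter) and 0 reversed. Of list score spans 199 stayed close and 25 moved, among them fibroblast genes without WT438 (0.0721), hypoxia genes without WT568 (0.126) and interferon-stimulated genes without Het569 (0.0857). List medians with each tumour left out were added after seeing the data. Of 72 such medians 59 stayed within 1.5 times and 13 moved further. No paired analysis was possible because the tumour numbers differ between the groups and pair no tumours. With 2 tumours in each of WT and Het, a 2-fold change was rarely called on simulated counts, and genes with counts near 0, such as Amhr2 and most lymphocyte markers, cannot be ordered at this depth.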

Other observations

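Several of the most variable genes belong to none of the lists. Leng8, a nuclear protein, stood at 5.91, 26.7, 20.2 and 18.8 FPKM and Spaca6, a sperm fusion gene, at 1.58, 9.59, 8.07 and 6.18. WT438 was the lowest tumour for both and lay below the KO tumours, which were at 12.7 to 29.3 and at 4.08 to 7.93. The sulfotransferase Sult1a1 was at 8.25, 14.2, 2.46 and 4.00, with KO tumours from 1.63 to 8.69. Both WT tumours lay above both Het tumours, as groups did not overlap in either direction for 28.9% of genes tested. Corneodesmosin (Cdsn), a skin adhesion protein, was at 16.5, 4.14, 3.31 and 6.87, highest in WT438. Gm21887 was at 1.10, 6.08, 7.498 and 25.1, highest in Het569.

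Among genes outside the protein-coding class, Gm23935, a gene of 57 bases, was listed at 16770.4 FPKM in WT438, 7355 in WT568, 10621 in Het563 and 12594 in Het569, above every nuclear protein-coding gene in all 4 tumours. WT568 was the lowest of the 4, and the KO tumours ranged from 12681 to 26575. A level per length over so short a gene rests on few positions. The pseudogene Rpl17-ps10 stood at 1090.2, 340, 369 and 584 FPKM and Gm10123 at 1428, 249, 303 and 155, both highest in WT438.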
